A study of Mus musculus with 6 samples.

Results

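Dppa2, Dppa4, Dppa5a, Utf1, Fbxo15 and Tcl1 are genes whose transcripts mark undifferentiated mouse embryonic stem cells (mESCs), and the contacts of their promoters were taken from maps of chromosome folding in R1, an established mESC line. HiCap combines Hi-C, in which cross-linked chromatin is cut, ligated and sequenced as junctions of neighbouring fragments, with capture of promoter fragments, and it was carried out on 2 biological replicates. Hi-C without capture was carried out on 2 replicates of the same line, whose contacts were given as 1 pooled list. The labels name no genotype change or treatment, all libraries are of this 1 line, and the cells were grown on gelatin in serum with leukemia inhibitory factor. Each listed pair joins a promoter fragment, named by its gene, to a distal region. Of the 639397 distinct distal regions of the lists, 96.1% were 1 fragment of the enzyme MboI. All pairs naming 1 of the 6 genes were taken from the lists, and a contact was called when the same promoter and distal fragment stood in both HiCap lists. The 6 genes are 6 of 21202 genes that a HiCap replicate listed, and they held 142 of 499746 distinct pairs of replicate 1, 227 of 553977 pairs of replicate 2, 27 of 94896 called pairs and 13 of 74807 pairs of Hi-C. The combined list made by the authors held the same 27 member pairs. The lists hold no read numbers and no expression values, so they do not give the depth behind a pair, and transcripts of the cells were not analysed here.

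Dppa2 and Dppa4 encode neighbouring SAP-domain proteins that bind chromatin and activate genes of the early embryo. Dppa5a encodes an RNA-binding protein with a KH domain, and Utf1 encodes a chromatin-associated factor that is a classic target of Oct4 and Sox2. Fbxo15, another target of these factors, encodes an F-box protein and has served as a reporter of reprogramming, while Tcl1 encodes a coactivator of the kinase Akt. A promoter can touch distant regulatory sequence through a chromatin loop, and ligation junctions also form between neighbouring fragments without a specific loop, so contacts become rarer with distance along the chromosome.

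Each of the 6 genes had 1 listed promoter fragment, and all 12 edges of these fragments lay at an MboI site of the mm9 genome. The Dppa2 fragment, chr16:48310209-48311277, was 1068 bp long, and the Dppa4 fragment, chr16:48283538-48285713, was 2175 bp long. Their midpoints lay 26.1 kb apart, and both genes are transcribed from the plus strand. The Dppa5a fragment (chr9:78215940-78216331, 391 bp) and the Tcl1 fragment (chr12:106460804-106461146, 342 bp) belong to genes on the minus strand. The Utf1 fragment, chr7:147129339-147130190, was 851 bp long on the plus strand, had 60.2% G+C and an observed to expected CpG ratio of 0.80, the highest ratio of the 6 (0.21 to 0.47 in the others). Over all listed promoter fragments the median length was 723 bp, the median G+C content 52.4% and the median CpG ratio 0.356. Each fragment held the annotated start site of its gene except that of Fbxo15 (99 bp, plus strand), which ended 118 bp before it.

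Sequences from 6 of the called distal regions are shown here from the plus strand of mm9, as examples of the regions described below; no contact was tested for dependence on its sequence. The first 3 are whole called fragments, chosen because they are short enough to be read from one cut site to the next, with the MboI sites (GATC) at both ends in capitals. The last 3 are stretches of longer called regions, with the match to a searched motif in capitals: an octamer of POU factors inside Dppa2, a Klf match inside Dppa4 that lay in a region called for Dppa2, and a TATA match inside Dppa2 that lay in a region called for Dppa4. In the Utf1 fragment at +3.62 kb a TATA match on the minus strand is also in capitals.
Dppa2 +3.79 kb, chr16:48314443-48314620: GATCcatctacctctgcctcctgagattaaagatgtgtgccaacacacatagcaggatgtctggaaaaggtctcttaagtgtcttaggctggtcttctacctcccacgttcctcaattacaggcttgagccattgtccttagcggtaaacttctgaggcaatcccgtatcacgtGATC
Utf1 +2.15 kb, chr7:147131822-147132017: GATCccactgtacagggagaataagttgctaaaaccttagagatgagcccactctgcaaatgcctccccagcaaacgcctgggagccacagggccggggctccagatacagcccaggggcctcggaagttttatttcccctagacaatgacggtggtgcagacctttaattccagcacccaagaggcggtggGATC
Utf1 +3.62 kb, chr7:147133264-147133510: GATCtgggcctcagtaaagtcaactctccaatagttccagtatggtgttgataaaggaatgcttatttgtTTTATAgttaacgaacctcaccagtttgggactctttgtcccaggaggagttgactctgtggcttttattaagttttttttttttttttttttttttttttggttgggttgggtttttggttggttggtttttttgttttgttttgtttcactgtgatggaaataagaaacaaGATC
Dppa2 +5.14 kb, chr16:48315627-48315826: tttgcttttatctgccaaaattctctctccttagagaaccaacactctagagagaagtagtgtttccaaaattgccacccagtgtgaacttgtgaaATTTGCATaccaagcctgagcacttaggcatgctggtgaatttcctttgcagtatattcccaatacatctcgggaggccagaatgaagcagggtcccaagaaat
Dppa2 -17.6 kb, chr16:48293074-48293273: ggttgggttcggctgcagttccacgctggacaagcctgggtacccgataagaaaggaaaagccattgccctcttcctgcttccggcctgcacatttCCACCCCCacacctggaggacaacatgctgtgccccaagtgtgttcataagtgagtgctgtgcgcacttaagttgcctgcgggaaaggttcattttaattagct
Dppa4 +32.5 kb, chr16:48317019-48317218: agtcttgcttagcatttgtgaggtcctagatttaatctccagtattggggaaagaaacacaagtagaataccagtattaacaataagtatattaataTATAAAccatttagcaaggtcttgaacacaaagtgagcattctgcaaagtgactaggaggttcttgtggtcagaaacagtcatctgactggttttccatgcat

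The number of distal regions differed widely among the 6 promoters. The Dppa2 promoter was linked to 55 distal regions in replicate 1, 114 in replicate 2, 15 in both and 5 in Hi-C. The Dppa4 promoter had 20, 64, 3 and 2, respectively. Both genes of this tandem pair had more regions in replicate 2, by 2.07-fold and 3.20-fold.

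The Utf1 promoter had 33 regions in replicate 1, 26 in replicate 2, 7 in both and 2 in Hi-C. The Fbxo15 promoter had 20, 18, 2 and 3 in the same order. These 2 promoters had like numbers in the 2 replicates. The Dppa5a promoter had 12 regions in replicate 1 but 1 in replicate 2, no called region and 1 in Hi-C, and the Tcl1 promoter had 2 and 4 regions, no called region and none in Hi-C. Ordered by their lists, the replicate ranges of Dppa2 and Dppa4 overlapped, as did those of Dppa4 and Utf1 and those of Dppa5a and Tcl1. Those of Dppa4 and Fbxo15 met at 20. The range of Utf1 lay above that of Fbxo15, and both lay above Dppa5a and Tcl1.

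**Figure D1:**
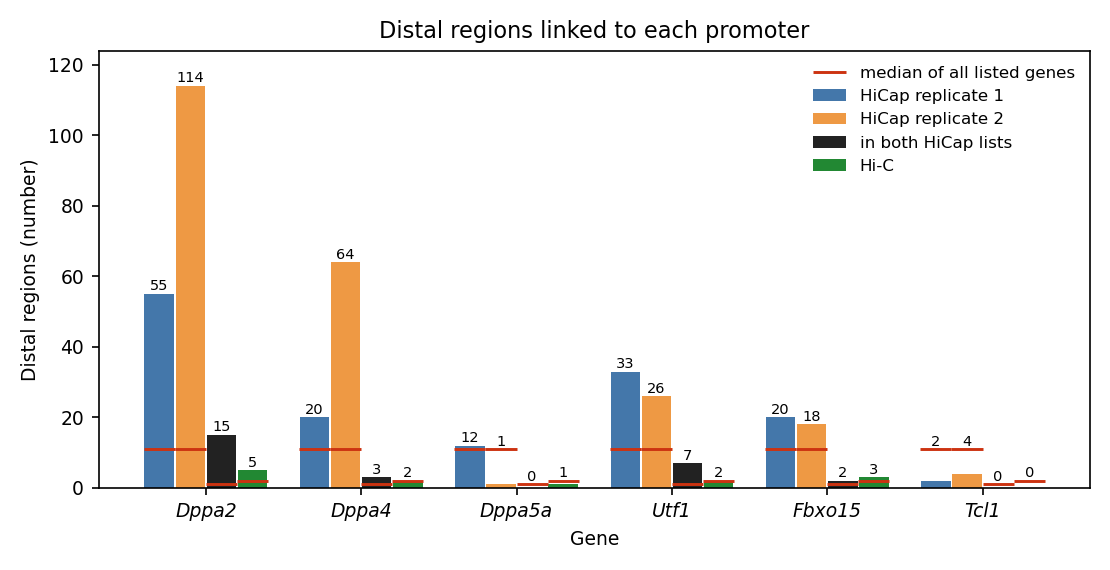
Number of distal regions linked to each of the 6 promoters (vertical axis) in HiCap replicate 1, HiCap replicate 2, both HiCap lists and Hi-C, with a red line at the median over all 21202 listed genes. Dppa2 stands highest in each list, and Dppa5a and Tcl1 have no bar for regions in both lists.

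Called contacts were thus found for 4 of the 6 genes (Dppa2, Dppa4, Utf1 and Fbxo15), beside 60.7% of all listed genes and 55.2% of the genes with 1 listed promoter fragment. Over all listed genes the median was 11 regions in each replicate, 1 called region and 2 in Hi-C. Dppa2 had more called regions than 91.8% of all listed genes, Utf1 than 80.3%, Dppa4 than 63.7% and Fbxo15 than 54.7%. Of the replicate 1 pairs of the 6 genes, 19.0% were listed by replicate 2 (27 of 142, exact binomial 95% interval 12.9 to 26.4%), beside 19.0% for all genes. Of their replicate 2 pairs, 11.9% were listed by replicate 1 (27 of 227, 7.99 to 16.8%), beside 17.1%. These intervals cover counting error only, and pairs that share a promoter fragment are not independent.

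Among all pairs that either replicate listed, 13.5% were called for Utf1 (7 of 52), 9.74% for Dppa2 (15 of 154), 5.56% for Fbxo15 (2 of 36) and 3.70% for Dppa4 (3 of 81). None was called for Dppa5a (0 of 13, upper limit 24.7%) or Tcl1 (0 of 6, upper limit 45.9%). In 15 comparisons between members by a two-sided Fisher's exact test, no adjusted p fell below 0.05, and 1 unadjusted p did. In that Fisher's exact test, Utf1 against Dppa4, p was 0.0476, and p was 0.713 after Benjamini-Hochberg adjustment over the 15. Distance was not held fixed in these tests, and they took the pairs of 1 promoter as independent, although such pairs share their fragment. The p-values therefore only describe these counts. The order of the members by the share of pairs called was not resolved at these numbers.

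Within 25 kb, the share of replicate 1 pairs that were called was 30.8% for Dppa2 (12 of 39), 25% for Utf1 (5 of 20), 16.7% for Fbxo15 (2 of 12) and 12.5% for Dppa4 (2 of 16), beside 25.3% for all genes. Of the replicate 2 pairs in this range, 12 of 18 were called for Dppa2, 5 of 10 for Utf1, 2 of 5 for Fbxo15 and 2 of 13 for Dppa4. None was called for Dppa5a (0 of 11 replicate 1 pairs and 0 of 1 replicate 2 pair) or Tcl1 (0 of 1 and 0 of 2). Over the 6 genes the share was 21.2% of replicate 1 pairs (21 of 99, 13.6 to 30.6%), beside 25.3% for all genes. It was 42.9% of replicate 2 pairs (21 of 49, 28.8 to 57.8%), beside 44.6% for all genes. Of the 4 genes with a called pair, Dppa4 had the lowest share in either list. Its intervals (1.55 to 38.3% and 1.92 to 45.4%) both held the value of all genes.

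The lists of the 2 replicates differed in reach. The median distance between fragment midpoints for the 6 genes was 11.9 kb in replicate 1 and 194 kb in replicate 2, and for all genes it was 19.8 and 101 kb. No member pair of replicate 1 spanned over 1 Mb, whereas 66 of 227 pairs of replicate 2 did (29.1%, 23.3 to 35.4%), beside 0.371% and 19.4% of the pairs of all genes. Of these 66 pairs, 41 belonged to Dppa2, 17 to Dppa4, 5 to Fbxo15 and 3 to Utf1. None of them was in replicate 1 or Hi-C. Without the pairs over 100 kb, Dppa2 kept 47 regions in replicate 1 and 44 in replicate 2, and Dppa4 kept 19 and 26, so the excess of Dppa2 in replicate 2 lay in pairs beyond that distance. For Dppa2 the regions within 25 kb numbered 39 in replicate 1 and 18 in replicate 2, the opposite order. The pairs of all genes showed both orders too. Within 25 kb they numbered 278950 in replicate 1 and 158059 in replicate 2, and over 100 kb 81345 and 277784. What set the distant pairs apart was not tested.

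**Figure D2:**
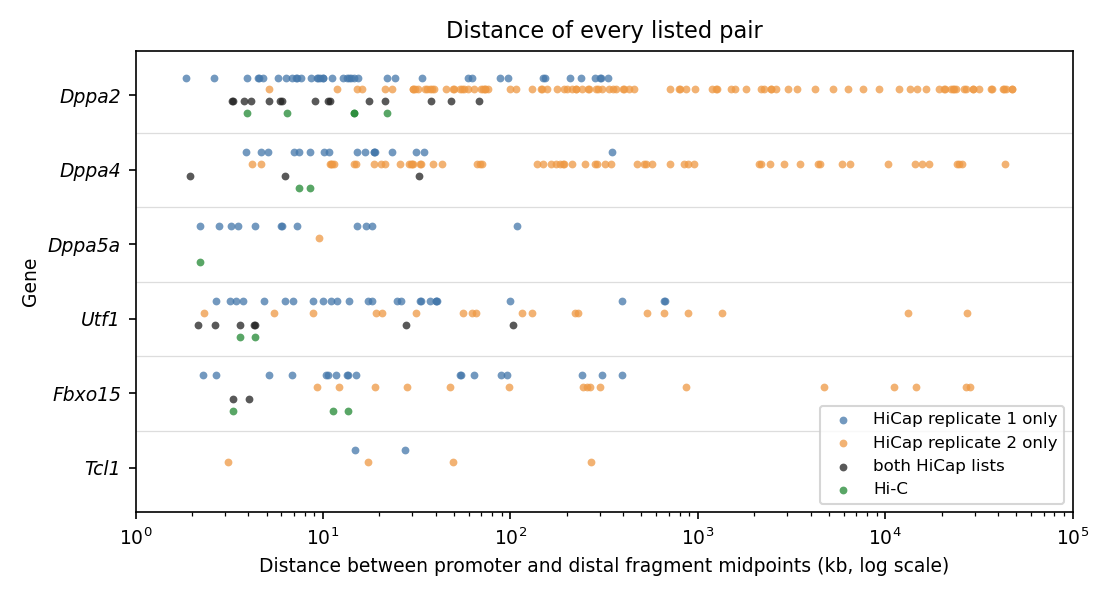
Distance from promoter to distal fragment for every listed pair of the 6 genes (horizontal axis, kb on a log scale), split into pairs of replicate 1 only, of replicate 2 only, of both HiCap lists and of Hi-C. Pairs of both lists end at 103 kb, and all pairs beyond 1 Mb are of replicate 2 only.

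Called pairs of the 6 genes had a median distance of 5.89 kb and ranged from 1.95 to 103 kb, beside a median of 10.3 kb for all called pairs. Of the 27 called pairs, 21 lay within 25 kb (77.8%, beside 74.4% of all called pairs) and 1 lay beyond 100 kb. From 1 to 5 kb, 12 of 32 replicate 1 pairs were called (37.5%, 21.1 to 56.3%), beside 31.6% for all genes, and 12 of 16 replicate 2 pairs (75.0%, 47.6 to 92.7%), beside 58.0%. From 10 to 25 kb the shares were 10.3% of replicate 1 pairs (4 of 39) and 17.4% of replicate 2 pairs (4 of 23), beside 20.1% and 33.7%. From 25 to 100 kb they were 19.2% (5 of 26) and 10.4% (5 of 48), beside 13.1% and 15.5%. In each distance class up to 500 kb the interval of the 6 genes held the value of all genes.

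**Figure D3:**
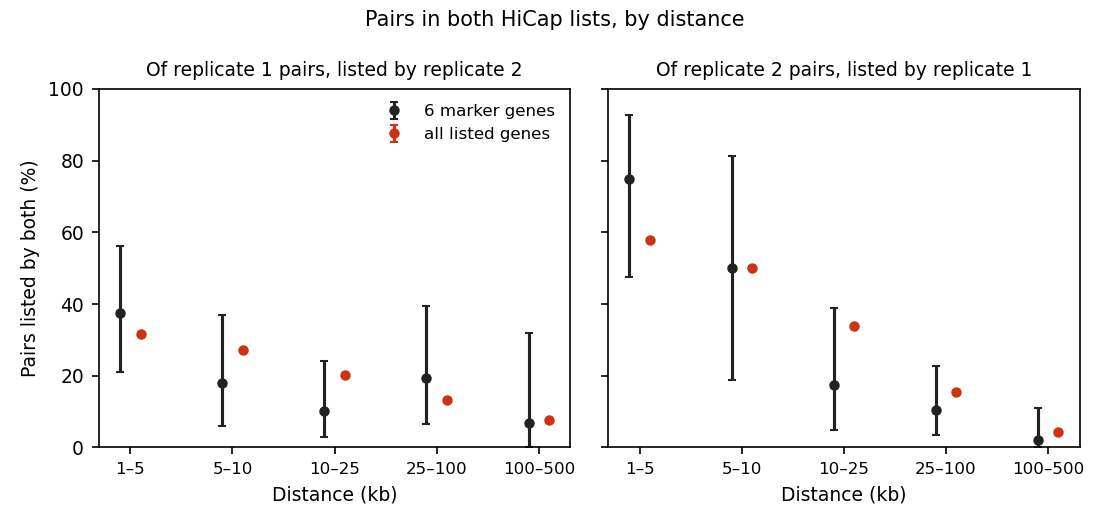
Share of the pairs of one HiCap replicate that the other also lists (vertical axis, %), by distance class (horizontal axis, kb), for the 6 marker genes and for all listed genes, with exact binomial 95% intervals. For the marker genes the shares are 37.5 and 75.0% in the nearest class and 6.67 and 2.08% in the farthest. The share of replicate 1 pairs does not fall steadily: it is 10.3% from 10 to 25 kb and 19.2% from 25 to 100 kb.

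Of the 27 called distal regions, 10 lay in the body of the gene whose promoter they contacted (37.0%, beside 31.8% over all called pairs of annotated genes), and 7 of these 10 belonged to Dppa2. An exon of any gene was overlapped by 6 regions (22.2%, beside 30.1%), 9 lay within introns (33.3%, beside 35.0%) and 12 were intergenic (44.4%, beside 34.9%). Downstream regions, in the direction of transcription, numbered 20 (74.1%, beside 52.2%), of which Dppa2 supplied 11, and upstream regions 7. For 22 pairs no other listed promoter lay between the fragments (81.5%, beside 61.8%), and for 19 the own promoter was the nearest listed one (70.4%, beside 56.6%). No test was made of these shares, since the regions of 1 promoter are not independent. By the calls, 1 of the 27 regions was also linked to another gene (3.70%), beside 33.5% over all called pairs. Both of these shares asked for both replicates. By at least 1 replicate, 12 of the 27 were linked to another gene. Over all member regions of 1 replicate the share was 36.0% in replicate 1 and 18.9% in replicate 2. Where fragment edges within 1 kb counted as shared it was 21.2%. No value over all genes was set beside these looser shares, so they cannot be compared with the 33.5%. Median length was 548 bp, beside 617 bp over all called pairs.

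Dppa2 accounted for 15 of the 27 called regions, 11 of them downstream. Upstream, regions were called at 67.8, 37.9, 17.6 and 3.25 kb. The first of these lay beyond the Dppa4 promoter in intergenic sequence (chr16:48242356-48243586), as did the next, and the region at 17.6 kb (chr16:48292687-48293556) overlapped a coding exon of Dppa4. Downstream, 7 regions between 3.32 and 9.12 kb lay in the Dppa2 gene itself, of which 3 overlapped an exon, including the last, which held untranslated sequence at the end of the gene. Beyond the gene, regions were called at 10.6, 11.0, 21.3 and 48.1 kb, all intergenic.

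Several of these regions adjoined one another. A run of 3 adjoining fragments, chr16:48313692-48315133, covered 1441 bp inside Dppa2, and its middle fragment is the Dppa2 sequence at +3.79 kb printed above. Runs of 2 fragments lay at chr16:48316530-48316864 (334 bp) and, past the gene, at chr16:48321093-48321769 (676 bp). Of the 129 MboI fragments between 1 and 25 kb from the Dppa2 promoter, 39 began a listed region in replicate 1 and 18 in replicate 2, and 12 did in both. The corresponding numbers for Dppa4 were 16, 13 and 2 of 134 fragments.

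The Dppa4 promoter had 3 called regions, at 6.31 kb upstream (intergenic), at 1.95 kb downstream in an intron of Dppa4, and at 32.5 kb downstream in an intron of Dppa2 (chr16:48316864-48317400). The called contacts of the 2 promoters therefore crossed, since that of Dppa2 reached an exon of Dppa4 and that of Dppa4 reached an intron of Dppa2. No list held either promoter fragment as a distal region, and the authors called contacts between promoters separately. A direct contact of these 2 promoters was therefore not examined. In replicate 1, 3 of 55 regions of Dppa2 overlapped the Dppa4 gene and 3 of 20 regions of Dppa4 overlapped the Dppa2 gene. In replicate 2 these numbers were 3 of 114 and 7 of 64, and in Hi-C they were 1 of 5 and 0 of 2.

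Hi-C listed the 2 regions of the crossing calls, but each for the promoter of the gene in which it lies, and so not as crossing contacts. The exon region of Dppa4 called for Dppa2 was listed by Hi-C for the Dppa4 promoter at 8.50 kb, and the intron region of Dppa2 called for Dppa4 was listed by Hi-C for the Dppa2 promoter at 6.39 kb. None of the 15 called pairs of Dppa2 (0%, upper limit 21.8%) and none of the 3 of Dppa4 was itself in Hi-C. Of the 5 Hi-C pairs of Dppa2, those at 3.92 kb upstream and 14.6 kb downstream were in replicate 1, and the others, at 22.0 and 14.7 kb upstream and 6.39 kb downstream, were in neither replicate. The Hi-C region at 22.0 kb lay in an intron of Dppa4, so Hi-C held 1 crossing contact of Dppa2, at another fragment than the call. Both Hi-C pairs of Dppa4, at 7.47 and 8.50 kb downstream, were in replicate 1.

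**Figure D4:**
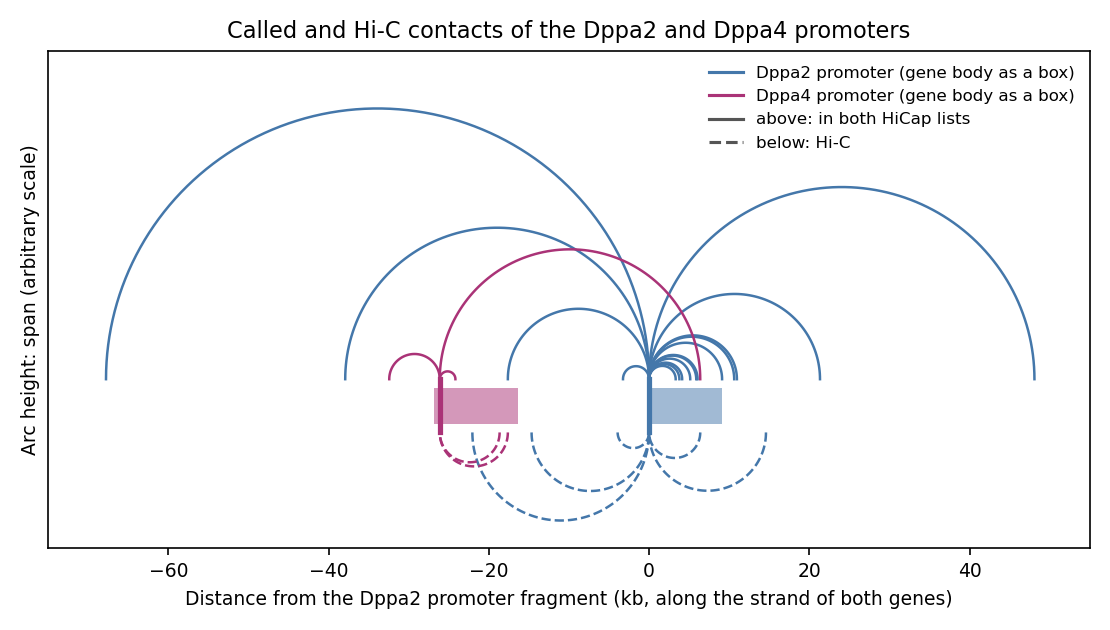
Contacts of the Dppa2 and Dppa4 promoters by distance from the Dppa2 promoter fragment (horizontal axis, kb), with called contacts as solid arcs above and Hi-C contacts as dashed arcs below; the height of an arc only scales with its span. The solid arc of Dppa4 that spans 32.5 kb ends inside the Dppa2 gene, and that of Dppa2 that spans 17.6 kb ends inside the Dppa4 gene.

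The Dppa2 and Dppa4 promoters shared 6 distal regions in replicate 1 and 5 in replicate 2. They shared no called region, though Dppa4 had only 3 of these. Over either replicate they shared 15 regions, which were 9.74% of the regions of Dppa2 and 18.5% of those of Dppa4. These 15 regions lay between 49.6 kb upstream and 5.14 kb downstream of the Dppa2 promoter. All 3 fragments of the run inside Dppa2, called for Dppa2, were listed for Dppa4 by replicate 2 at 29.4, 29.9 and 30.2 kb. In total, 5 of the 15 regions called for Dppa2 were listed for Dppa4 by a replicate. The nearest listed promoter on the far side of Dppa4 was that of Pvrl3, 1788 kb away, and on the far side of Dppa2 that of Gm5485 at 102 kb.

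The Utf1 promoter had 7 called regions. Upstream, they lay at 27.7 kb in an intron and at 4.35 kb over a coding exon of Kndc1, the neighbouring gene. Downstream, 4 regions at 2.15, 2.66, 3.62 and 4.30 kb began 810, 1165, 2252 and 2517 bp past the end of Utf1 and lay in intergenic sequence. The last 2 were nearer to the listed promoter of AC107822.5, 6.58 kb from that of Utf1. The longest called contact of all 6 genes also belonged to Utf1: at 103 kb downstream it overlapped an exon with untranslated sequence of Msx3, a homeobox gene (chr7:147232144-147232873), past 7 other listed promoter fragments. Both Hi-C pairs of Utf1, at 4.35 kb upstream and 3.62 kb downstream, were called pairs. The other 5 called pairs of Utf1 were not in Hi-C.

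Kndc1, on the other side of Utf1 at 20.3 kb, had 25 and 27 regions in the 2 replicates and no called region, while AC107822.5 had 27, 36 and 9 called. Replicate 1 linked 7 of the 33 regions of Utf1 also to AC107822.5 and 3 to Kndc1. In replicate 2, 2 of 26 were linked also to AC107822.5.

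The Fbxo15 promoter, on chromosome 18, had 2 called regions, which adjoined each other at 3.32 and 4.05 kb downstream in introns of Fbxo15 and covered 1452 bp. The nearer was also in Hi-C. The farther was called for 1700034H14Rik as well, whose promoter lay 16.3 kb away and had 18 called regions. It was the region, among the 27, that was called for another gene. In replicate 1, 11 of the 20 regions of Fbxo15 were linked also to 1700034H14Rik and 7 also to Cyb5, a cytochrome gene with its promoter 57.8 kb away. Of these 20 regions, 6 were called for 1700034H14Rik and 4 for Cyb5. Hi-C listed 2 further regions of Fbxo15, at 13.6 kb upstream (also in replicate 1) and at 11.3 kb downstream (in neither replicate).

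Dppa5a had no called region. Its 12 regions in replicate 1 lay at 2.21 to 18.2 kb except 1 at 109 kb, with 8 upstream and 4 downstream, and all were intergenic. The region of replicate 2, at 9.55 kb downstream, was not among them, and none came within 1 kb of it. The Hi-C region of Dppa5a, at 2.21 kb upstream, was in replicate 1. The neighbouring promoter of Ooep, an oocyte gene 10.2 kb away, shared 10 of the 12 regions in replicate 1, and 5 of the 12 were called for Ooep. No share over all genes, or over promoters this close, was set beside these counts. The same holds for the regions that other members shared with neighbours in 1 replicate. Ooep itself had 68 and 20 regions in the 2 replicates, 13 called and 3 in Hi-C.

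Tcl1 had 6 regions over both replicates, beside 13 for Dppa5a. Those of replicate 1 lay at 14.8 and 27.5 kb upstream, and those of replicate 2 at 3.13 kb downstream in an intron of Tcl1 and at 17.3, 49.7 and 269 kb upstream. No region was in both lists. Its relatives Tcl1b1 to Tcl1b5, all listed, had 13 to 28 regions in replicate 1 and 7 to 17 in replicate 2. Of these 5 relatives, 4 had 1 or 2 called regions and Tcl1b3 had none. Since the depth at each fragment is unknown, the low number for Tcl1 could not be set against how well its fragment was captured.

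**Figure D5:**
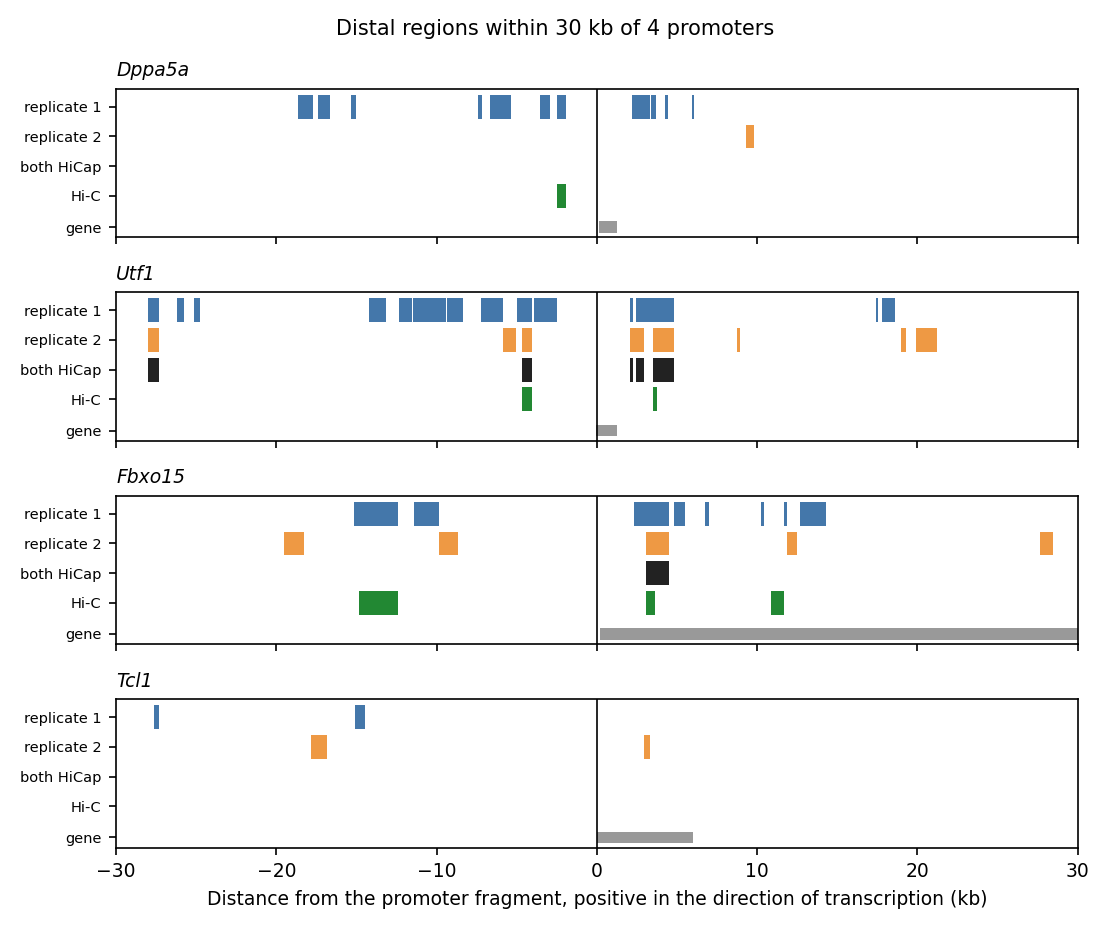
Distal regions within 30 kb of the Dppa5a, Utf1, Fbxo15 and Tcl1 promoters, by distance in the direction of transcription (horizontal axis, kb), with rows for replicate 1, replicate 2, both HiCap lists, Hi-C and the gene body; box width is the length of the region. Boxes in the row of both lists stand at 6 and 2 regions for Utf1 and Fbxo15, and that row is empty for Dppa5a and Tcl1.

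Hi-C, whose list did not enter the calls, held 3 of the 27 called pairs (11.1%, 2.35 to 29.2%), beside 12.5% of all called pairs. From the other side, 9 of the 13 Hi-C pairs of the 6 genes were in a HiCap replicate (69.2%, 38.6 to 90.9%), beside 39.4% for all genes. All 9 were in replicate 1, and 3 were in both replicates (23.1%, 5.04 to 53.8%), beside 15.8%. All 13 lay within 22.0 kb of their promoters. The 3 called pairs in Hi-C all lay from 1 to 5 kb, where 12 pairs were called (25%, 5.49 to 57.2%), beside 20.7% for all genes.

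Sequence motifs were searched on both strands of the 27 called regions. The octamer ATGCAAAT was in 1 of them, the region of Dppa2 at 5.14 kb, beside 3.29% of all 71955 called distal regions and 5.10% of those with a length within 10% of it. TATAAA was in 9 (33.3%), beside 31.9%, and the Klf motif GGGNGTGG in 5 (18.5%), beside 20.7%. These 5 regions belonged to Dppa2, at 17.6 kb upstream and 3.32 kb downstream, and to Utf1, at 4.35 kb upstream and at 2.66 and 4.30 kb downstream. The core of the composite Sox and Oct element (TTGTNATGC), the Esrrb motif TCAAGGTCA, the STAT motif TTCCNGGAA and the CTCF core were in none, beside 1.69, 2.34, 2.20 and 0.860% of all called regions. Of 32851 RefSeq promoters on GRCm38.p6, 1.74% held the octamer, 0.731% the Sox and Oct core, 0.423% the Esrrb motif, 17.6% the Klf motif, 1.15% the STAT motif, 13.6% TATAAA and 0.557% the CTCF core. Promoters of 2 of the 6 genes, Utf1 and Tcl1, were in that table, and none of these motifs was in either.

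Beside the 6 genes, 23 of 24 other genes of the embryonic stem cell network were listed, and 19 of them had a called region (82.6%). Their median was 4 called regions, beside 2.5 for the 6 genes and 1 for all listed genes. Trim28, a corepressor, had 55 called regions from 4 promoter fragments and Klf2, a transcription factor of naive cells, had 35 from 1 fragment. Nr0b1, Sall4, Gdf3 and Rif1 had none. Of 13 relatives and tandem neighbours of the 6 genes 12 were listed, and 8 had a called region, with a median of 1.5. Ooep had the most called regions of these, with 13.

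By their numbers of regions in replicate 1, replicate 2, both lists and Hi-C, the genes most like Dppa4 were Snora41, Dkk1 and Pdcd1lg2, with summed absolute differences of 0.045 to 0.296 on the log2(1 + number) scale over the 4 values. They were for Utf1 Zfp647, Echs1 and Ankrd33 (0.198 to 0.368), and for Fbxo15 Trmu, Ears2 and 1810014F10Rik (0.144 to 0.300). Dppa5a had the same 4 numbers as each of 4 genes, Lgals8, Prl7a1, Spock1 and Vwa5a, and Tcl1 the same as each of 10 genes.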

How the data were processed

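HiCap and Hi-C libraries of R1 mESCs were analysed as 4 deposited lists: HiCap replicate 1, HiCap replicate 2, HiCap combined and Hi-C with replicates pooled. The deposited values are positions: per the rows of the lists, the authors gave the start and end of a promoter and of a distal fragment on mm9, with a gene name and no read numbers. The authors aligned read ends separately with Bowtie through HiCUP, discarded repeated and very near pairs, and kept pairs with a minimum of reads; for Hi-C that minimum is not given in the sources used here. The 2 Capture-C samples were not analysed here.

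Distinct pairs were compared with Python 3.11.15 (pandas 2.3.3, numpy 2.4.6, scipy 1.17.1, pyfaidx 0.9.0.4). Distances run between midpoints, positive in the direction of transcription. Within 25 kb, all 131 listed member regions had both edges at an MboI site, and 126 were 1 MboI fragment. Listed starts of distal regions lie 1 base before the site. Genes and exons came from GENCODE on mm9 without pseudogenes. Shares carry exact binomial (Clopper-Pearson) 95% intervals, and members were compared by Fisher's exact test. Only 2 HiCap samples exist, and no test over samples was possible. The scripts were tested on simulated lists.

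The members, gene lists, motifs and tests were chosen with earlier results of these data known. Named genes were the 6 members, genes sharing a called region with them, the nearest captured genes on either side, the 3 genes with the most similar numbers (all at a tie for Dppa5a, as a count for Tcl1, and not reported here for Dppa2), and at most 6 values of the list of other stem cell genes; Cyb5, Tcl1b and Ooep were named as neighbours or relatives, and Msx3, outside this rule, after its overlap with a called region was seen. Alternatives were each replicate alone, the combined list, pairs over 15 kb, genes in place of promoter fragments, and a tolerance of 1 kb.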

Additional observations from a re-analysis of the deposited data

How the results depend on the processing

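The combined list, and genes in place of promoter fragments, gave the same values as pairs in both lists for all results they could be applied to. Neither was an independent check. Each of the 6 genes had 1 listed promoter fragment, so naming the gene could not change its pairs. The combined list drew on the same 2 HiCap replicates. With 1 replicate in place of both, the member pairs numbered 142 (without replicate 2) to 227 (without replicate 1), their share in Hi-C was 1.32 to 6.34%, their median distance 11.9 to 194 kb and the share of their regions linked to another gene 18.9 to 36.0%; all 6 genes then had a region. Over 15 kb, 8 called pairs were left, of 3 genes, with a median distance of 35.2 kb, 0% in Hi-C and 0% linked to another gene (both 0 of 8, upper limit 36.9%), and 4.19% of replicate 2 pairs were in replicate 1; Fbxo15 had none left. With fragment edges within 1 kb taken as shared, 69 pairs of replicate 1 counted as called. Of these 69 pairs, 33 belonged to Dppa2, and 5.80% (4 of 69) were in Hi-C. At this tolerance 48.6% of replicate 1 pairs and 24.2% of replicate 2 pairs were shared, and 21.2% of the regions were linked to another gene. No value over all genes was set beside these shares, so they do not compare the 6 genes with others. Dppa5a and Tcl1 had no called region under any setting that asked for both replicates. No adjusted p among the 15 Fisher's exact tests fell below 0.05 over 15 kb or within 25 kb, the latter chosen after seeing the data (smallest adjusted p 0.487). The median distance was not recomputed with the 1 kb tolerance. No paired analysis was possible because Hi-C replicates are pooled in 1 list and no test compared groups of samples. Depth is unknown, so a missing pair was not detected and is not shown to be absent.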
